A study of Mus musculus with 14 samples.

Results

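To describe how the feedback genes of the Wnt pathway stand in the colon epithelium with and without Smad4, 10 genes were read from RNA-seq counts of 14 libraries, out of 37680 genes in the table. They are Axin2, Nkd1, Notum, Znrf3, Rnf43, Lgr4, Sp5, Wif1, Tcf7 and Ccnd1. They were chosen by symbol as members of the Wnt feedback loop or as known targets of the pathway, with no cut on their values. Earlier results of these data were known when they were chosen. The epithelium was released with EDTA from the colon of WT mice and of Villin-CreERT2 mice with floxed Smad4 (Smad4 KO), all on a background enriched for C57/BL6. In the latter, tamoxifen given for 4 d activates a Cre recombinase that the Villin promoter restricts to epithelial cells of the intestine. Mice of 8 to 14 weeks drank water (4 libraries labelled WT and 4 labelled Smad4 KO) or 2.5% dextran sulfate sodium (DSS) for 3 d (3 WT and 3 Smad4 KO). DSS is a sulfated polysaccharide that injures the colon epithelium.

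When a Wnt ligand binds a Frizzled receptor and its Lrp co-receptor, the destruction complex built on Apc and Axin no longer removes β-catenin, which enters the nucleus and switches on genes together with TCF factors. Several of those genes act back on the pathway. Axin2 rebuilds the destruction complex, Nkd1 binds Dishevelled, Znrf3 and Rnf43 are ubiquitin ligases that clear Frizzled from the cell surface, and Notum and Wif1 are secreted inhibitors, of which Notum removes the lipid of the ligand and Wif1 binds the ligand itself. Lgr4 is a receptor for R-spondins, which keep Znrf3 and Rnf43 away from Frizzled, Tcf7 encodes a TCF factor, Sp5 is a zinc finger transcription factor, and Ccnd1 encodes cyclin D1, which drives entry into the cell cycle. In the colon this pathway maintains the stem cells at the crypt base.

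TCF factors act on their targets through short DNA motifs, and the promoters of the set are shown for that reason. In the RefSeq set for GRCm38.p6, windows from 250 bases before to 50 bases after a transcription start were found for 7 of the 10 genes, and Notum, Znrf3 and Ccnd1 had none. These windows were searched on both strands for the letters CTTTGNN with A or T in both of the last positions, the form in which TCF factors bind DNA. Of the 9 windows of the 7 genes only that of Sp5 held any, at 104 and 222 bases before the start, and 16.9% of all 32851 windows in the set held at least 1. The windows of Axin2, the gene most used as a reading of the pathway, and of Sp5 are shown in 5′ to 3′ direction, with the matches in capitals, of which AACAAAG is CTTTGTT read on the other strand. Both lie on the forward strand, that of Axin2 at chr11:108920099-108920398 and that of Sp5 at chr2:70474673-70474972. A match describes the letters in the window and is not a site shown to be bound.
Axin2: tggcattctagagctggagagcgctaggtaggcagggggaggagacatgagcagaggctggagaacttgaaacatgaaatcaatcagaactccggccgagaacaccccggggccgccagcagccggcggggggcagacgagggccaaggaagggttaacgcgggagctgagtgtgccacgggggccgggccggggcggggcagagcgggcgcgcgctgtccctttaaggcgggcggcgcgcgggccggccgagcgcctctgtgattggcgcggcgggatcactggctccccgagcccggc
Sp5: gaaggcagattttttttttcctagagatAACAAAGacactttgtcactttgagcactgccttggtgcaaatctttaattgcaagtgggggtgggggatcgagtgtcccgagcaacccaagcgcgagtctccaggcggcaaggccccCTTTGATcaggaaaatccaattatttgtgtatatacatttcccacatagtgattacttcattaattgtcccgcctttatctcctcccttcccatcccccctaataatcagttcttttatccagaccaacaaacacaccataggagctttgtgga

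In GENCODE M1 (mm9), from which positions were taken here, Axin2 (ENSMUSG00000000142) lies on the forward strand at chr11:108781663-108812097, Nkd1 (ENSMUSG00000031661) on the forward strand at chr8:91045243-91118786, Lgr4 (ENSMUSG00000050199) on the forward strand at chr2:109757804-109854414, Sp5 (ENSMUSG00000075304) on the forward strand at chr2:70312980-70315786, and Wif1 (ENSMUSG00000020218) on the forward strand at chr10:120471016-120537706. Rnf43 (ENSMUSG00000034177) is at chr11:87476224-87549041 on the forward strand, and the reverse strand holds Notum (ENSMUSG00000042988, chr11:120515102-120522489), Znrf3 (ENSMUSG00000041961, chr11:5176327-5344850), Tcf7 (ENSMUSG00000000782, chr11:52065873-52096681) and Ccnd1 (ENSMUSG00000070348, chr7:152115836-152125774). Values are counts over whole genes. The 3′ end of Ccnd1 shares 818 exon bases with Oraov1 on the other strand, a gene with 6550 counts over all libraries against 26464 for Ccnd1. Whether the counting used strand is not given in the sources used here, so reads in those bases could belong to either gene.

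Total counts ran from 12882827 to 26087231. Mitochondrial genes held 4.05 to 8.23% of the counts in 11 libraries, and 30.6%, 32.8% and 21.4% in WT water replicates 3 and 4 and Smad4 KO water replicate 4. In the library labelled Smad4 KO water replicate 1, Smad4 stood at 158 CPM (TMM-scaled CPM, the share of counts in a library on a common scale), within the 118 to 182 CPM of the 7 WT libraries, while the other 6 Smad4 KO libraries held 35.1 to 46.8 CPM. Its label is kept here, although its Smad4 goes against it, and the genotype values on water are given without it too. Library names carry the letters D, Z, MP, MS or ZH, whose meaning is not given, and all 3 Smad4 KO DSS libraries carry D whereas no Smad4 KO water library does. All 6 markers of epithelium (Epcam, Cdh1, Krt8, Krt19, Vil1 and Cdx2) were present in each group, at a summed 10557 to 17592 CPM. Fibroblast markers summed to at most 30 CPM, immune cell markers to 11 to 29.1 CPM, smooth muscle markers to 11.8 to 22 CPM, glia markers to at most 5.35 CPM and endothelial markers to at most 0.855 CPM. In bulk libraries fewer cells of a type and less RNA per cell cannot be told apart.

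Read per kilobase of exon, the 10 genes spanned a wide range, and the order placed the receptor Lgr4 first and the secreted inhibitors last. Lgr4 had a median of 42.9 CPM per kilobase over the 14 libraries and Ccnd1 25.4, with Lgr4 above Ccnd1 in 14 of 14 libraries and Ccnd1 above Rnf43 in 14 of 14. Rnf43 (7.29) and Axin2 (5.47) came next, and their order differed by group. In WT water Rnf43 was above Axin2 in 1 of 4 libraries, at means of 7.5 ± 1.29 and 8.22 ± 1.72 CPM per kilobase (SD, n = 4) that did not differ beyond their spread. Rnf43 was above Axin2 in 3 of 3 WT DSS libraries and in 3 of 4 libraries labelled Smad4 KO water, the exception being replicate 1. It was also above in 3 of 3 Smad4 KO DSS libraries, at 7.03 to 7.43 against 3.37 to 4.2 CPM per kilobase. Axin2 was above Tcf7 (1.61) in 14 of 14 libraries. Tcf7 exceeded Znrf3 (1.46) in 11 of 14, and Znrf3 exceeded Sp5 (0.563) in 13 of 14. Nkd1 (0.153), Wif1 (0.0976) and Notum (0.0683) were at the lower limit of detection, with at least 1 library at 0 counts each, and their order held in 8 of 14 libraries at either step. The 2 ubiquitin ligases that clear Frizzled differed in level, at 7.29 for Rnf43 and 1.46 for Znrf3, while the R-spondin receptor that opposes them was the most abundant of the set.

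**Figure D1:**
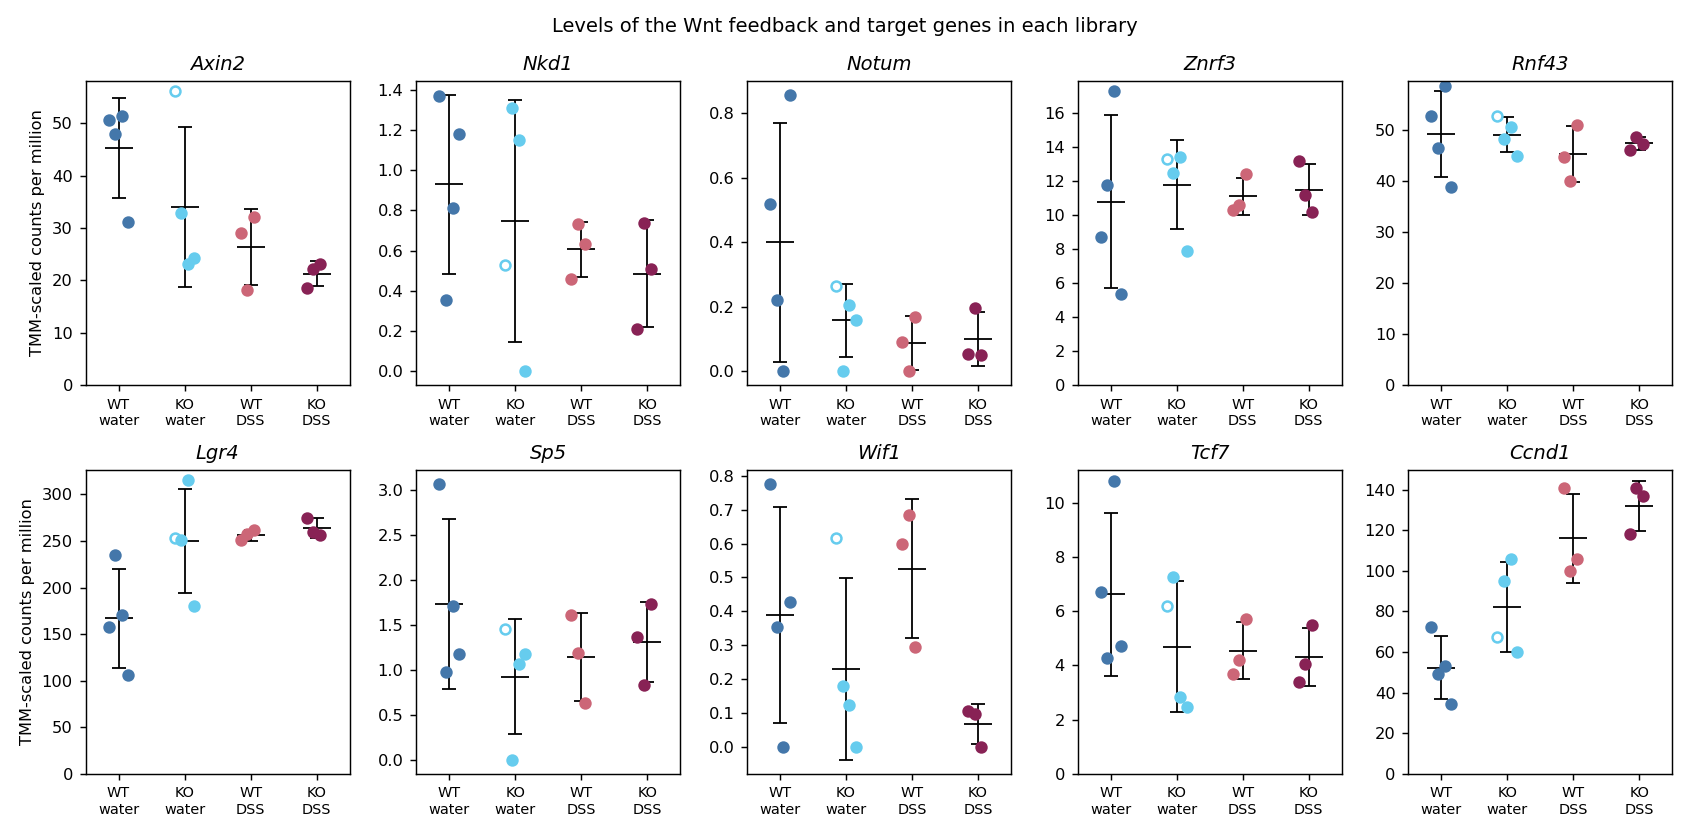
Level of each of the 10 genes in each library (TMM-scaled CPM, linear axes with a range of their own), by group. Points are libraries, horizontal bars are group means and error bars are ± SD (n = 4, 4, 3 and 3), and the open circle is the library labelled Smad4 KO water replicate 1. Axin2 is highest in WT water and in the open circle, Ccnd1 is highest in the DSS groups, and Nkd1, Notum and Wif1 stay below 1.5 CPM.

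No gene of the set passed edgeR's quasi-likelihood test (2 groups per fit, Benjamini-Hochberg adjusted p under 0.05) in any of the 4 comparisons, of the 9 that could be tested. Notum, with 0 to 14 counts per library, fell under the filter of 10 counts in 3 libraries. For Smad4 KO against WT on water, 0 of 9 genes were called where 0.00661% of all 15127 genes were, 2 of 9 had an unadjusted p under 0.05 against 20.4% of all genes, and DESeq2 called 0 of 9 against 4.28%. Without Smad4 KO water replicate 1, edgeR also called 0 of 9, where it called 13 of all 15127 genes. In that fit 2 of 9 had an unadjusted p under 0.05 against 18% of all genes. After DSS the edgeR count was 0 of 9 against 0.747% of all genes, with 1 of 9 under an unadjusted p of 0.05 against 15.4%, and DESeq2 called 0 of 9 against 3.21%. That 1 gene was Wif1, which passed the filter on low counts only with the help of WT DSS libraries. Its place in this count is thus not independent of the filter. For DSS against water in WT, edgeR called 0 of 9 and 0% of all genes, 3 of 9 had an unadjusted p under 0.05 against 24.2%, and DESeq2 called 2 of 9, Axin2 and Ccnd1, where it called 10.9% of all genes. For DSS against water in Smad4 KO, edgeR called 0 of 9 against 0.00661%, 2 of 9 had an unadjusted p under 0.05 against 6.37%, and DESeq2 called 0 of 9 against 0.47%. These counts include Smad4 KO water replicate 1. An edgeR model of the 13 libraries without it called 0 of 9, where it called 5 of all 15127 genes. In that model 1 of 9 had an unadjusted p under 0.05, against 2 of 9 in the model of all 14 libraries. The comparisons share groups, so their values are given side by side and not as separate support. The number of genes that do not overlap between groups was 0 for the genotypes on water (10.4% of all genes), 1 after DSS (21.7%), 2 for DSS in WT (24.4%) and 2 for DSS in Smad4 KO (8.88%). The 1 after DSS was again Wif1, with the same limit.

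**Figure D2:**
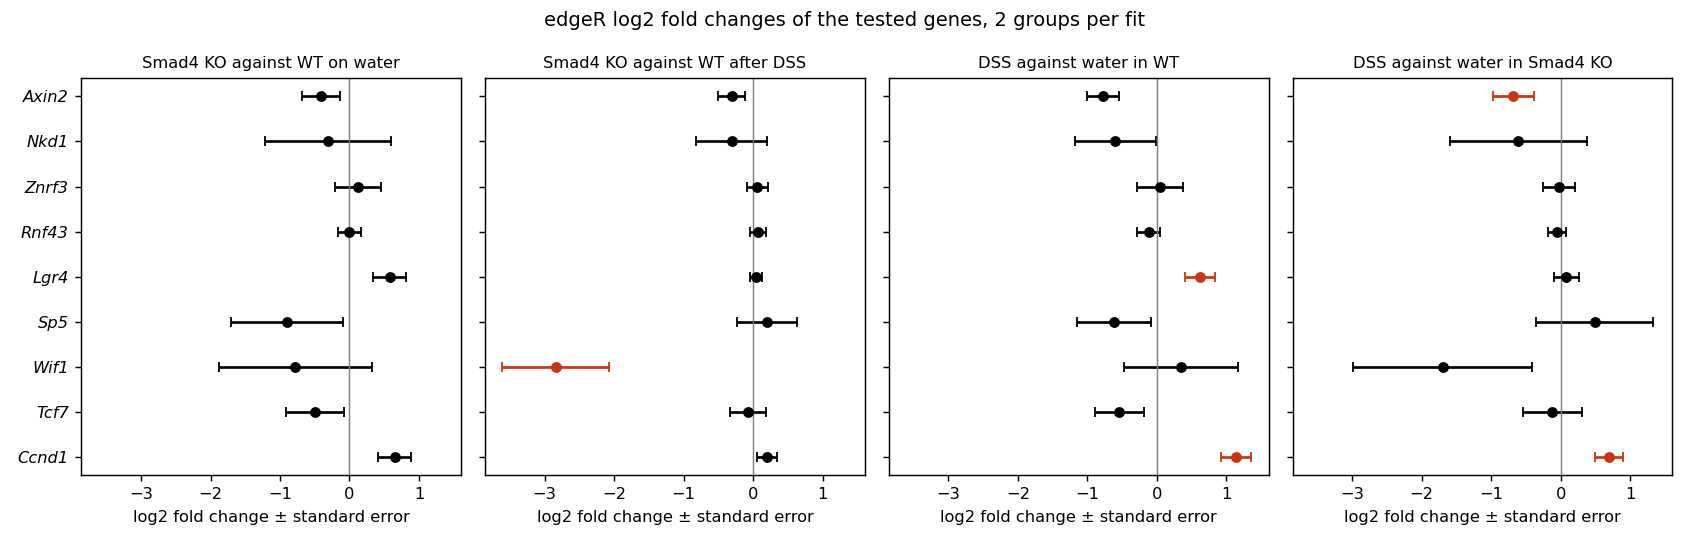
Log2 fold change of the 9 tested genes in the 4 comparisons (edgeR, 2 groups per fit), with bars of ± 1 standard error. Red marks genes whose libraries do not overlap between the groups. Wif1 after DSS (-2.84), Ccnd1 (1.14) and Lgr4 (0.62) for DSS in WT, and Axin2 (-0.68) and Ccnd1 (0.69) for DSS in Smad4 KO are red, and none of them passed the threshold. Wif1 passed the filter on low counts only with WT DSS libraries, so its value after DSS is not independent of the filter.

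Axin2, which rebuilds the destruction complex, had its highest group mean in WT on water and its lowest in Smad4 KO on DSS. It stood at 50.6, 48, 51.4 and 31.2 CPM in WT water replicates 1 to 4, and at 56.2, 32.8, 23.2 and 24.2 CPM in the libraries labelled Smad4 KO water. It was 29, 18.2 and 32.1 CPM in WT DSS and 18.6, 22.2 and 23.1 CPM in Smad4 KO DSS. Thus 3 of 4 WT water libraries and the library labelled Smad4 KO water replicate 1 lay near 50 CPM or above, and every other library lay under 33 CPM. WT on DSS overlapped WT on water only through WT water replicate 4, the library with the fewest counts and the highest mitochondrial share.

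For DSS against water in WT, the log2 fold change of Axin2 was -0.78 (SE 0.23, 1.72-fold lower, edgeR adjusted p = 0.104), and DESeq2 gave an adjusted p of 0.0243. Between the libraries named D alone it was -1.06 (edgeR adjusted p = 0.167), and with libraries of at most 20% mitochondrial counts it was -0.90 (edgeR adjusted p = 0.089). In Smad4 KO the 2 treatments did not overlap, with 23.1 CPM as the highest DSS library and 23.2 CPM as the lowest water library, and the log2 fold change was -0.68 (SE 0.30, edgeR adjusted p = 0.76). Without Smad4 KO water replicate 1 that value was -0.32 (SE 0.21). The letters in the library names and DSS cannot be told apart in Smad4 KO, since no letter is shared.

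Between the genotypes on water, Axin2 had a log2 fold change of -0.41 (SE 0.28, edgeR adjusted p = 0.423) with the groups overlapping. Without Smad4 KO water replicate 1 it was -0.76 (SE 0.23, 1.69-fold lower), with an edgeR adjusted p of 0.183 in the fit of the 2 groups and of 0.04999 in 1 model of the other 13 libraries, which called 7.61% of all genes. In that comparison Smad4 KO ranged from 23.2 to 32.8 CPM and WT from 31.2 to 51.4 CPM. After DSS the difference between the genotypes was -0.31 (SE 0.19, edgeR adjusted p = 0.489), and it was -0.14 between the libraries named D. Differentiated colonocyte markers differed beside these genotype values, at a summed 4021 to 4933 CPM in WT water and 2488 to 3613 CPM in Smad4 KO water (2598 to 3613 CPM without replicate 1), and at 3153 to 4087 and 2426 to 3098 CPM after DSS, with none of the 6 at 0. A set of 6 distal Hox genes, read as markers of colon position, summed to 364 to 625 CPM in WT water and 211 to 562 CPM in Smad4 KO water. Without replicate 1 the latter was 211 to 339 CPM, which did not overlap WT water. After DSS the Hox sums overlapped, at 334 to 470 CPM in WT and 346 to 349 CPM in Smad4 KO. The part of either marker list in the values of Axin2 was not tested.

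Nkd1, the partner of Dishevelled, had 0 to 37 counts per library and a mean of 0.929 ± 0.446 CPM (SD, n = 4) in WT water and 0.485 ± 0.265 CPM (n = 3) in Smad4 KO DSS. Its groups overlapped in every comparison, and the log2 fold changes lay between -0.61 and -0.31 with SEs of 0.51 to 0.99. The genotype value on water was -0.16 (SE 1.03) without Smad4 KO water replicate 1.

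At the receptor, Lgr4 was low in WT water and even in the DSS groups. It stood at 158, 235, 171 and 106 CPM in WT water, and at 253, 251, 316 and 180 CPM in the libraries labelled Smad4 KO water. The lowest of each was replicate 4, with a mitochondrial share of 32.8% in WT and 21.4% in Smad4 KO. After DSS Lgr4 was 251, 257 and 262 CPM in WT and 275, 260 and 256 CPM in Smad4 KO. All 4 WT water libraries were below all 3 WT DSS libraries, while the spread among the 4 WT water libraries (SD 53.1) was far wider than that within either DSS group (5.79 and 10.3). For DSS against water in WT the log2 fold change was 0.62 (SE 0.22, 1.53-fold higher, edgeR adjusted p = 0.137, DESeq2 adjusted p = 0.0672). It was 0.83 with an edgeR adjusted p of 0.04994 without WT water replicate 2 (a fit that called 2.76% of all genes), and 0.37 (edgeR adjusted p = 0.43) between the libraries named D. WT water replicate 2 had the highest Lgr4 of its group (235 CPM) and the lowest mitochondrial share of it (6.42%). The fit without it keeps WT water replicates 3 and 4, with mitochondrial shares of 30.6% and 32.8%.

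In Smad4 KO the value for DSS against water was 0.08 (SE 0.18), and after DSS the genotypes differed by 0.04 (SE 0.09). Between the genotypes on water it was 0.58 (SE 0.24, edgeR adjusted p = 0.21), and 0.58 (SE 0.27, edgeR adjusted p = 0.291) without Smad4 KO water replicate 1. A model of all 14 libraries with the name letters as a block gave 0.65 with an edgeR adjusted p of 0.0259, a fit that called 13.3% of all genes. The difference of the DSS response between the genotypes was -0.54 (SE 0.31, edgeR adjusted p = 0.679), and -0.53 without that replicate.

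The 2 ubiquitin ligases passed the test in none of the comparisons between groups. Rnf43 ranged from 38.8 to 58.6 CPM over the 14 libraries, with group means of 49.2 ± 8.49, 49.1 ± 3.36, 45.2 ± 5.48 and 47.4 ± 1.31 CPM (SD, n = 4, 4, 3 and 3) in WT water, Smad4 KO water, WT DSS and Smad4 KO DSS. Its 4 log2 fold changes lay between -0.12 and 0.07, with SEs of 0.11 to 0.16. Znrf3 averaged 10.8 ± 5.1, 11.8 ± 2.6, 11.1 ± 1.1 and 11.5 ± 1.51 CPM in the same order, and its log2 fold changes lay between -0.02 and 0.12 with SEs of 0.15 to 0.33. Without Smad4 KO water replicate 1, the genotype values on water were -0.03 for Rnf43 and 0.07 for Znrf3. Neither gene was called under any alternative that was run.

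Of the secreted inhibitors, Wif1 had the largest fold difference of the set, at very low counts. It had 21, 8, 0 and 4 counts in WT water and 14, 3, 3 and 0 in the libraries labelled Smad4 KO water. After DSS it had 13, 15 and 7 counts in WT and 2, 2 and 0 in Smad4 KO. The groups did not overlap after DSS, at 0.295 to 0.685 CPM in WT and 0 to 0.105 CPM in Smad4 KO. The log2 fold change between the genotypes was -2.84 (SE 0.77, unadjusted p = 0.00444 and adjusted p = 0.141 in edgeR), and it was -3.13 between the libraries named D. DESeq2 gave an adjusted p of 0.137. Wif1 passed the filter on low counts through WT water replicate 1, Smad4 KO water replicate 1 and WT DSS replicates 1 and 2. It would not have passed without those 2 WT DSS libraries, and no Smad4 KO DSS library held more than 2 counts. The direction of its genotype value after DSS is thus not independent of the filter.

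On water the genotype value of Wif1 was -0.78 (SE 1.10), and -1.93 without Smad4 KO water replicate 1, neither passing the test. Fibroblast markers (7, of which Lum was at 0 in WT DSS) overlapped between the genotypes on water. They summed to 0.896 to 4.38 CPM in WT water and to 3.4 to 30 CPM in Smad4 KO water, with or without replicate 1. After DSS they did not overlap, at 0.368 to 2.23 CPM in WT and 7.76 to 14.1 CPM in Smad4 KO. That order was the opposite of the order of Wif1 after DSS, and the part of those cells was not tested. Notum, the other secreted inhibitor, had at most 14 counts in any library and 0 in 3 of them, and no comparison of it was made.

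Among the nuclear genes, Ccnd1 had higher levels on DSS than on water in both genotypes. It stood at 72.3, 49.3, 53.3 and 34.3 CPM in WT water, and at 67.6, 95.1, 106 and 60 CPM in the libraries labelled Smad4 KO water. After DSS it was 141, 99.8 and 106 CPM in WT and 118, 141 and 137 CPM in Smad4 KO. Every DSS library of either genotype was above every water library of the same genotype, and the 2 genotypes overlapped under both conditions. The log2 fold change for DSS in WT was 1.14 (SE 0.22, 2.20-fold higher, edgeR adjusted p = 0.0876), and DESeq2 called it with an adjusted p of 0.000476. Between the libraries named D it was 0.98 (edgeR adjusted p = 0.194), and without a filter on low counts the edgeR adjusted p was 0.0151, where that fit called 2.05% of all genes.

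In Smad4 KO, Ccnd1 had a log2 fold change of 0.69 for DSS (SE 0.20, 1.61-fold higher, edgeR adjusted p = 0.66), and 0.61 without Smad4 KO water replicate 1. On water the genotypes differed by 0.65 (SE 0.24, edgeR adjusted p = 0.19), by 0.74 (SE 0.27, edgeR adjusted p = 0.216) without that replicate, and after DSS by 0.20 (SE 0.14, edgeR adjusted p = 0.531). Oraov1, which overlaps its 3′ end, had group means of 21.2 to 24.4 CPM and was called in no comparison. The summed level of 10 proliferation markers, among them Mki67 and Top2a, overlapped between all groups (601 to 858 CPM in WT water and 655 to 901 CPM in WT DSS).

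**Figure D3:**
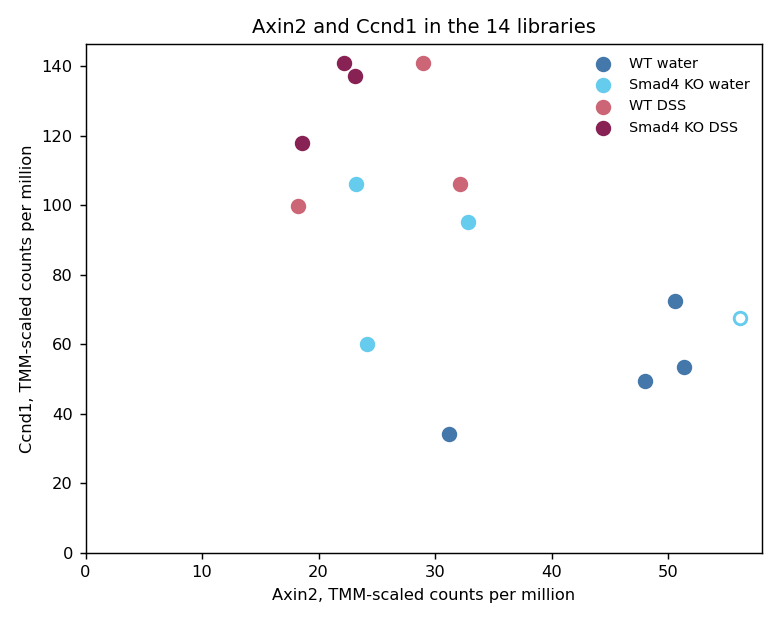
Axin2 (horizontal) against Ccnd1 (vertical) in the 14 libraries, in TMM-scaled CPM, coloured by group, with the library labelled Smad4 KO water replicate 1 as an open circle. WT water lies toward low Ccnd1 (34.3 to 72.3 CPM) and the DSS libraries at 99.8 CPM of Ccnd1 or above with Axin2 at 32.1 CPM or below.

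Tcf7 and Sp5 passed the test in none of the comparisons. Tcf7 averaged 6.62 ± 3, 4.69 ± 2.41, 4.54 ± 1.06 and 4.31 ± 1.07 CPM (SD, n = 4, 4, 3 and 3) in WT water, Smad4 KO water, WT DSS and Smad4 KO DSS, with log2 fold changes between -0.54 and -0.07. Sp5 had 0 to 83 counts per library, 1.73 ± 0.944 CPM in WT water and 0.924 ± 0.637 CPM in Smad4 KO water, and its log2 fold changes lay between -0.90 and 0.49 with SEs of 0.43 to 0.84. On water, the genotype values were -0.50 for Tcf7 and -0.90 for Sp5, and -0.66 (SE 0.47) and -1.20 (SE 0.94) without Smad4 KO water replicate 1. The test of the difference of the DSS response between the genotypes called 0 of the 9 genes in edgeR and DESeq2, with 0 at an unadjusted p under 0.05 and 0.00661% of all genes called by edgeR, 0.0529% by DESeq2 and 7.5% at an unadjusted p under 0.05. Its lowest adjusted p in edgeR was 0.68, that of Lgr4.

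The likeness to Axin2 ran from positive to negative among the targets of the pathway. Over the 14 libraries, the genes whose log2 CPM was most like that of Axin2, among 11554 genes with a mean of at least 50 normalized counts, were Ephb3 (Pearson r = 0.91), the carboxypeptidase gene Cpm (0.90), Id2 (0.88), Ascl2 (0.87) and Nrm (0.87). Ephb3 is a receptor that positions cells along the crypt, Ascl2 is a transcription factor of crypt base stem cells, and Id2 is an inhibitor of helix-loop-helix factors. Other crypt targets were less like Axin2, namely Sox9 (r = 0.37, rank 1865), Myc (0.26, rank 2971), Lgr5 (0.15, rank 4194), Ephb2 (0.07, rank 5078) and Cd44 (0.04, rank 5410). Of the genes of the set with enough counts to be ranked, Tcf7 (r = 0.66, rank 197) and Rnf43 (0.57, rank 479) were the nearest, Znrf3 (0.16, rank 4067) lay between, and Lgr4 (-0.36, rank 9666) and Ccnd1 (-0.57, rank 11074) were the farthest. Over the 13 libraries without Smad4 KO water replicate 1, Ephb3 (r = 0.91) and Cpm (0.87) again came first, and the values were 0.65 for Tcf7, 0.52 for Rnf43, 0.08 for Znrf3, -0.48 for Lgr4 and -0.57 for Ccnd1. In those 13 libraries, Sox9, Myc, Lgr5, Ephb2 and Cd44 lay between 0.07 (Lgr5) and 0.24 (Sox9). All these correlations describe 14 libraries in 4 groups, which share treatment, genotype and name letters, and they carry no test.

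The rest of the pathway was read from lists of ligands, receptors, the destruction complex, TCF partners, antagonists, crypt targets and paralogs, 102 genes in all, of which 66 had enough counts to test. EdgeR's fits of 2 groups called 0 of the 66 in each of the 4 comparisons, and its test of the difference called 0 too. At an unadjusted p under 0.05 stood 19.7, 13.6, 30.3, 6.06 and 7.58% of the 66, beside 20.4, 15.4, 24.2, 6.37 and 7.5% of all genes. DESeq2 called 4, 2, 10, 0 and 0 of them, which is 6.06, 3.03 and 15.2% in the first 3 comparisons beside 4.28, 3.21 and 10.9% of all genes. On water, the edgeR model of all 14 libraries called 6 of the 66 higher in Smad4 KO (Apc, Fzd5, Lgr5, Lrp6, Tnks and Tnks2), a share of 9.09% beside 8.44% of all genes, and it called none in the other 3 comparisons. The fit of 2 groups called 0 of the 66 on water without Smad4 KO water replicate 1, where it called 13 of all genes tested. The medians of the 66 log2 fold changes were 0.16, -0.00, 0.12 and -0.04 in the 4 comparisons, beside -0.01, 0.00, -0.01 and -0.02 over all genes. Of 21 genes for ligands and their secretion, 7 were testable and none was called, and none of the 4 R-spondins reached the filter. Wls, which carries Wnt ligands to the cell surface, stood at 84.9 to 108 CPM in the group means. The 35 untested genes had at most 31 counts in any library, that of Sfrp2.

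The genes that follow were named after their values were seen. Of 16 tested receptors, 14 had a positive log2 fold change for Smad4 KO against WT on water (median 0.43), where 49.4% of all genes did, and 4 (25%) had an unadjusted p under 0.05, near the 20.4% of all genes. Of the 16, 13 were positive without Smad4 KO water replicate 1 (median 0.36). Lgr5, a paralog of Lgr4 and a marker of crypt base stem cells, averaged 10.5 ± 2.43, 19.8 ± 2.56, 4.83 ± 1.97 and 12.3 ± 0.535 CPM (SD, n = 4, 4, 3 and 3) in WT water, Smad4 KO water, WT DSS and Smad4 KO DSS. Its genotype value on water was 0.92 (SE 0.22, edgeR adjusted p = 0.153, and 0.0358 in the model of 14 libraries), and 1.01 (edgeR adjusted p = 0.138) without Smad4 KO water replicate 1. After DSS it was 1.35 (SE 0.28, edgeR adjusted p = 0.0695, DESeq2 adjusted p = 0.000104), and for DSS in WT it was -1.11 (SE 0.33, edgeR adjusted p = 0.104, DESeq2 adjusted p = 0.0173). The genotype value of Lgr4 after DSS was 0.04 and its value for DSS in WT was 0.62, so that the 2 R-spondin receptors had values of opposite sign in the WT epithelium on DSS. A test of Lgr4 against Lgr5 was not made.

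Within the destruction complex, Apc had a log2 fold change of 0.73 on water (SE 0.18, edgeR adjusted p = 0.154, DESeq2 adjusted p = 0.0184), and Tnks, which encodes a tankyrase that marks Axin for degradation, had 1.53 (SE 0.47, edgeR adjusted p = 0.157, DESeq2 adjusted p = 0.0293). Leaving out Smad4 KO water replicate 1 gave 0.76 (edgeR adjusted p = 0.161) for Apc and a 2.83-fold higher level (edgeR adjusted p = 0.209) for Tnks. In WT water replicates 1 to 4, Tnks stood at 6.51, 8.83, 12.3 and 4.28 CPM, and in those of Smad4 KO water at 24.6, 25, 36.8 and 5.67 CPM. The groups thus overlapped through Smad4 KO water replicate 4. Replicate 4 was the lowest library of both groups, and both carry the letters MP and a high mitochondrial share. Tnks in WT on DSS was 1.23 (SE 0.32, edgeR adjusted p = 0.0955, DESeq2 adjusted p = 0.00936). Axin1, the paralog of Axin2 that serves as the constitutive scaffold of the complex, had 0.16 on water (0.13 without that replicate) and 0.30 for DSS in WT. Of the 10 crypt targets, 8 had a negative value for DSS in WT (median -0.21), as did 51.4% of all genes, and DESeq2 called 3 of them lower, where it called 5.87% of all genes lower. For DSS in Smad4 KO, 9 of the 10 had a negative value (median -0.48, and -0.40 without Smad4 KO water replicate 1), as did 52.7% of all genes, and DESeq2 called 0 of them. In WT, Ascl2 had -1.58 (SE 0.22, edgeR adjusted p = 0.0588, DESeq2 adjusted p = 3.1e-08) and Ephb3 -0.75 (SE 0.17, edgeR adjusted p = 0.0878, DESeq2 adjusted p = 0.00351), the third being Lgr5. Myc, like Ccnd1 a growth gene under Wnt control, had 0.03 (SE 0.17).

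**Figure D4:**
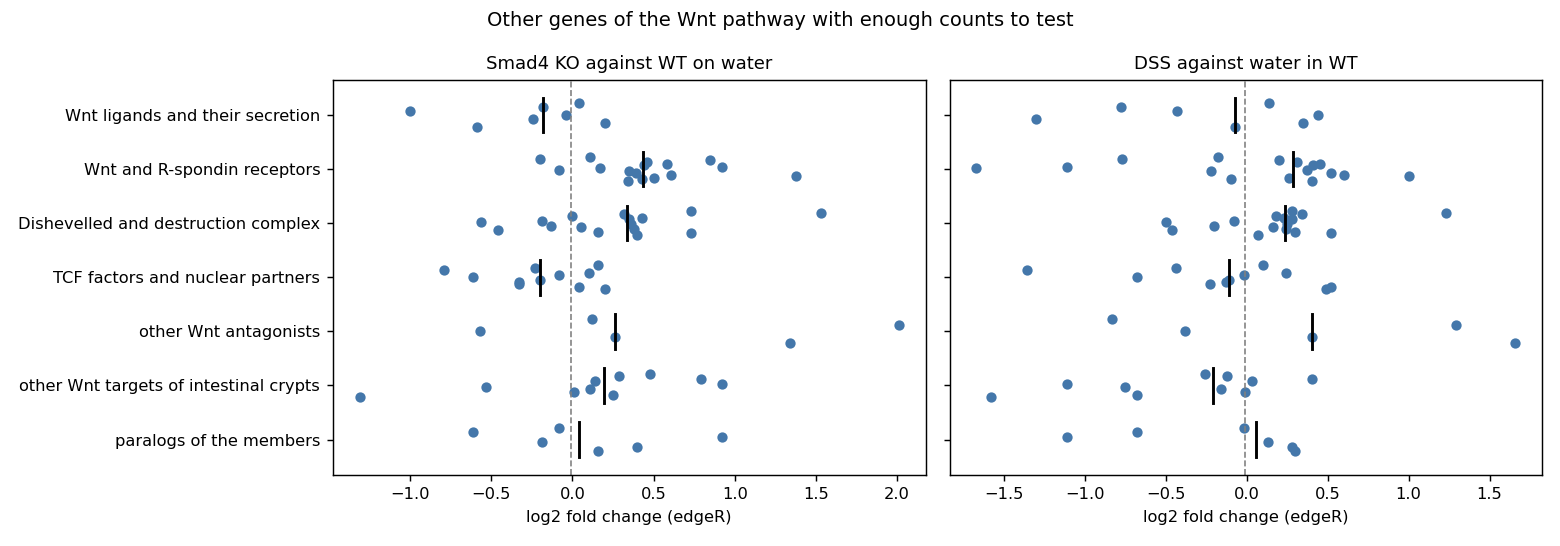
Log2 fold change (edgeR) of the other tested genes of the pathway, by list, for Smad4 KO against WT on water and for DSS against water in WT. Points are genes, black bars are list medians and the dashed line is the median of all 15127 genes. The receptor list lies to the right in the first panel (median 0.43) and the crypt targets to the left in the second (median -0.21). The edgeR fits of 2 groups called no gene, and the edgeR model of all 14 libraries called 6 in the first panel and none in the second.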

How the data were processed

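Whole-number counts per gene, deposited without normalization, were used for 14 libraries (37680 genes). The authors sequenced poly(A) RNA as paired 150-base reads on a NovaSeq, aligned them to mm9 with Hisat2 2.0.5 and counted reads on genes with featureCounts 1.5.0-p3. The annotation and strand setting of the counting are not given in the sources used here. Positions and exon lengths came from GENCODE M1, which lists 37310 of the genes.

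Groups follow the deposited labels. Nothing in the labels names the animal of each library, so p-values measure the spread between these libraries. A gene entered the test when 3 or more libraries held 10 or more counts (15127 genes). The test was that of edgeR 4.0.16 (R 4.3.3, TMM, quasi-likelihood) on the 2 groups compared, as the study's own tests were pairwise. The study's figure legends give 3 replicates for Smad4 KO on water, where 4 libraries are deposited and used here. They do not say which 3 were used, so the 2 sets of libraries differ on water. The difference of the DSS response was fitted on all 14 libraries. P-values were adjusted over all genes by the Benjamini-Hochberg method, with a threshold of 0.05. Each standard error was the log2 fold change over the root of the F statistic. Levels are CPM scaled by TMM over the 14 libraries. Correlations used log2 CPM with a prior count of 2. The code was tested on simulated data.

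Alternatives were DESeq2 1.42.0, all 14 libraries in 1 model, RLE size factors, no filter, no mitochondrial genes, blocks of replicate number or name letters, and each library left out. After seeing the data, a model of 13 libraries, the libraries named D alone and those with at most 20% mitochondrial counts were added, and correlations with Axin2 over 13 libraries. The 10 genes and all lists were chosen with earlier results of these data known. All 10 genes are named, and of other pathway genes up to 5 per comparison among those called without overlap, a rule that no gene met. Of the listed genes, 1 (Fzd10) could not be matched to a single identifier.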

Additional observations from a re-analysis of the deposited data

Results flagged for a closer look

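Of 20 groups of 4 libraries (10 genes in WT water and in Smad4 KO water), 2 held a library far from the other 3, with a gap to them above Dixon's critical value. Chance alone flags about 1 group in 20. Axin2 in WT water replicate 4 was 31.2 CPM, where the other 3 WT water libraries held 48 to 51.4 CPM. Znrf3 in Smad4 KO water replicate 4 was 7.91 CPM, where the other 3 held 12.5 to 13.4 CPM. Both libraries carry the name letters MP and had mitochondrial shares of 32.8% and 21.4%. The part of the letters and of the mitochondrial share in the 2 values was not tested. Without WT water replicate 4, the log2 fold change of Axin2 for DSS in WT was -0.92 (edgeR adjusted p = 0.0797).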

How the results depend on the processing

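edgeR called 1 gene of all those tested on water, and this count was 646 in DESeq2, 1276 with all 14 libraries in 1 model, 55 without the filter, 473 with the replicate block, 2018 with the name letter block, 1151 in the 13-library model and 104 with libraries of at most 20% mitochondrial counts. After DSS the 113 calls became 485 in DESeq2, 2 with all 14 libraries, 345 without the filter, 57 with the replicate block, 1 with the name letter block, 8 in the 13-library model and 42 between the libraries named D. For DSS in WT the 0 calls became 1641 in DESeq2, 457 without the filter, 54 with the replicate block, 2 with the name letter block, 9 between the libraries named D and 1 with the mitochondrial limit. For DSS in Smad4 KO the 1 call became 71 in DESeq2, 10 with all 14 libraries, 19 without the filter, 15 with the replicate block and 5 in the 13-library model. For the difference of the DSS response, 1 call became 8 in DESeq2 and 2 without the filter. Leaving out a library gave 1 to 1740 calls on water (1740 without Smad4 KO water replicate 4, 13 without replicate 1), 27 to 96 after DSS (27 without Smad4 KO DSS replicate 2), 0 to 418 for DSS in WT (418 without WT water replicate 2, 25 without replicate 4), 1 to 3 for DSS in Smad4 KO (3 without Smad4 KO water replicate 3 or Smad4 KO DSS replicate 1) and 1 to 5 for the difference (5 without Smad4 KO water replicate 4). Why these counts moved was not tested.

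Of the 10 genes, 1 was called on water with the name letter block (Lgr4) and 1 in the 13-library model (Axin2). For DSS in WT, 2 were called in DESeq2 (Axin2 and Ccnd1), 1 without the filter and 1 with the replicate block (Ccnd1 both times, with the block at a log2 fold change of 0.99 and an edgeR adjusted p of 0.0294), and 0 to 1 with a library left out (Lgr4, without WT water replicate 2). No fit called any of them after DSS, for DSS in Smad4 KO or for the difference of the DSS response.

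Some log2 fold changes that were not called changed sign. On water, Rnf43 was 0.01 without mitochondrial genes, 0.01 with the replicate block and 0.03 with the mitochondrial limit, Nkd1 was 0.20 with that limit, and Znrf3 and Wif1 were -0.05 and 0.13 with the name letter block. After DSS, Sp5 and Tcf7 were -0.10 and 0.13 with that block and -0.09 and 0.13 between the libraries named D. For DSS in WT, Znrf3 was -0.13 with the replicate block and Wif1 -0.12 with the mitochondrial limit. For DSS in Smad4 KO, Lgr4 was -0.03 with the replicate block, -0.22 with the name letter block and -0.05 with the mitochondrial limit. With the name letter block Nkd1, Znrf3 and Tcf7 were 0.66, 0.22 and 0.43, and in the 13-library model Znrf3 and Tcf7 were 0.03 and 0.05. No letter is shared between water and DSS in Smad4 KO. The block values for DSS in Smad4 KO, and those for the difference that follow, thus rest on letter differences among WT libraries. For the difference of the DSS response, Nkd1 was 0.34 with the replicate block and 1.20 with the name letter block, and Znrf3 0.19 with the latter. Of 765 recomputed values, 693 kept their sign and side of the threshold, 7 moved past the threshold and 65 changed sign, 42 of these when a library was left out.

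With a library left out, values spanned zero on water for Nkd1 (-0.70 to 0.10), Znrf3 (-0.09 to 0.44) and Rnf43 (-0.10 to 0.09). After DSS they did so for Nkd1 (-0.74 to 0.04), Znrf3 (-0.05 to 0.14), Rnf43 (-0.01 to 0.17), Sp5 (-0.09 to 0.53) and Tcf7 (-0.28 to 0.13). For DSS in WT they did for Znrf3 (-0.17 to 0.35) and Wif1 (-0.03 to 0.98), and for DSS in Smad4 KO for Znrf3 (-0.17 to 0.05), Lgr4 (-0.05 to 0.21) and Tcf7 (-0.33 to 0.17). For the difference they did for Axin2 (-0.11 to 0.45), Nkd1 (-0.45 to 0.37), Znrf3 (-0.39 to 0.15) and Rnf43 (-0.03 to 0.18).

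Replicate numbers did not pair the libraries, since same-numbered deviations correlated at -0.081 to 0.0561 in all pairs but replicate 4 on water (0.348), which shares the letters MP. CPM of the library total moved 3 of 40 group means by more than 1 SD. Counts under 40 per library limit Nkd1, Wif1 and Notum. The same holds for Sp5 outside WT water replicate 1, with 83 counts there and at most 35 in any other library.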

Other observations

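Among the other Wnt antagonists, 5 of 16 had enough counts to test and edgeR's fits of 2 groups called none in any comparison. Sfrp1, a secreted Frizzled-related inhibitor named after its values were seen, had 0 to 110 counts per library and group means of 0.0463 ± 0.0925, 0.263 ± 0.318, 0.165 ± 0.142 and 2.21 ± 2.92 CPM (SD, n = 4, 4, 3 and 3) in WT water, Smad4 KO water, WT DSS and Smad4 KO DSS. Its log2 fold change between the genotypes after DSS was 3.71 (SE 1.07, edgeR adjusted p = 0.16), of opposite sign to that of Wif1 (-2.84). Only Smad4 KO libraries brought Sfrp1 past the filter of 10 counts in 3 libraries, with 10 and 12 counts on water and 13 and 110 after DSS. No WT library held more than 7 counts, so the direction of its genotype value is not independent of the filter. The same limit holds for the value of Wif1 after DSS. The value of Sfrp1 rests on Smad4 KO DSS replicate 3, at 5.58 CPM (110 counts), where replicates 1 and 2 held 0.418 and 0.64 CPM. Without replicate 3 the mean of the other 2 libraries was 0.529 CPM and the log2 fold change 1.67 (SE 0.75, edgeR adjusted p = 0.456). Fibroblast markers had the same order of groups after DSS (0.368 to 2.23 CPM in WT and 7.76 to 14.1 CPM in Smad4 KO), and their part in the value of Sfrp1 was not tested. Kremen1, a receptor for Dickkopf inhibitors, stood at 16.8 to 22.4 CPM in the group means.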
